A study of Mus musculus with 4 samples.

Results

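Genes that make thyroid hormone active in brown fat, sense it and respond to it were examined in brown adipose tissue of Tsku knockout mice and of wild-type mice. The genes were a list of 9: Dio2, Tshr, Thra, Thrb, Slc16a10, Ncor1, Ncoa1, Med1 and Thrsp. A gene was taken where a probe set of the array was annotated with its symbol alone, and where it had several the 1 used was chosen by its mean level over the 4 arrays, the highest being kept. Of the 9 genes 8 were found, among 22180 genes measured in the same way, and Ncor1, a corepressor, was not analysed here. The list was drawn up with earlier results of these arrays known, in which Dio2 and Tshr were among the largest differences between the genotypes. Their differences are therefore a description of these 4 arrays and no independent evidence.

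The labels give 2 samples from Tsku knockout (KO) mice and 2 from wild-type (WT) mice, all C57BL/6 males aged 4 months on chow. Tsku encodes tsukushi, a secreted protein of the small leucine-rich proteoglycan family. Neither the allele nor the method of the knockout is given in the sources used here, nor whether a sample pooled mice, and Tsku has no listed probe set, so the genotypes rest on the labels. The labels call the samples of a genotype biological replicates without saying that they came from separate mice, so p-values cover only the variation seen among these samples, part or all of which may be technical.

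Thyroxine from the thyroid gland is largely a prohormone. Brown adipocytes contain the type 2 deiodinase, the product of Dio2, which removes an iodine atom from thyroxine and so raises triiodothyronine inside the cell. Triiodothyronine binds nuclear receptors that sit on DNA with retinoid X receptors, releases corepressors and recruits coactivators, and in brown fat it acts with noradrenaline on genes of heat production and fat synthesis. Dio2 itself is known to be switched on in brown fat by cyclic AMP, the messenger that noradrenaline raises.

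Values are log2 expression levels with an offset that is not stated, so a difference of 1 is a doubling, and a level can be compared between arrays but not between genes. Background was taken on each array as the 95th percentile of the 1405 olfactory and vomeronasal receptor probe sets, and lay between 0.63 and 0.81. All 8 genes lay above it on all 4 arrays. Precision is limited by the number of arrays: over all genes the 95% interval of a difference reached a median of 0.52 to either side. In the limma fit over all genes, 0 of 22180 (0%) had an adjusted p under 0.05, and 1234 (5.56%) had an unadjusted p under 0.05. In bulk tissue, fewer cells of a type and less RNA per cell cannot be told apart.

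Dio2 had the second largest positive difference of all 22180 genes. It measured 4.30 and 4.71 in KO brown fat, against 2.63 and 2.32 in WT brown fat. Both KO arrays stood well above both WT arrays, and the gap between the genotypes was larger than the spread within either. The means were 4.51 ± 0.29 in KO and 2.48 ± 0.22 in WT (SD, n = 2 each). KO was thus 4.08-fold higher, or 2.03 ± 0.23 (SE) on the log2 scale, with a 95% interval of 1.46 to 2.60. In the limma fit its adjusted p over all genes was 0.736, and an exact two-sided permutation test of 2 arrays against 2 cannot give a p below 0.333.

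Dio2 had another probe set, dimmer and named for the same gene. It read 1.66 and 1.17 in KO brown fat, against 0.00 and -0.15 in WT brown fat, where both arrays were below background. On that probe set KO was at least 1.64-fold higher, a bound that sets each WT array at its background. The 2 probe sets thus pointed the same way, although KO replicate 1 was the higher of the KO arrays on this one and KO replicate 2 on the brighter one. Which part of the gene each reads is not given in the sources used here.

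The sequence before the start of Dio2 is shown because it holds the palindrome that the transcription factor CREB binds when cyclic AMP rises. It is the 250 bases ahead of the start in the RefSeq table for build GRCm38.p6, chr12:90739039-90739288 on the minus strand, with the cAMP response element in capitals.
Dio2: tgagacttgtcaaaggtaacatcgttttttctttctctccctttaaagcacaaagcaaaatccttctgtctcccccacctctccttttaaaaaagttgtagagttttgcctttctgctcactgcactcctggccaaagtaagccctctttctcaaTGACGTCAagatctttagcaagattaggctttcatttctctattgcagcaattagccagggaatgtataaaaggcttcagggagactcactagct
The element, TGACGTCA, reads the same on both strands and begins 95 bases before the start. Of 32851 promoter windows of this length in the table, 508 (1.55%) hold it. The shorter core TGACG is in 17.8% of the windows, and both matches to it before Dio2 lie inside the full element. Promoter windows were listed for 7 of the 9 genes, Tshr and Thra being the others, and the full element was in the window of Dio2 alone among those 7. A match is a description of letters and shows neither binding nor a cause.

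**Figure D1:**
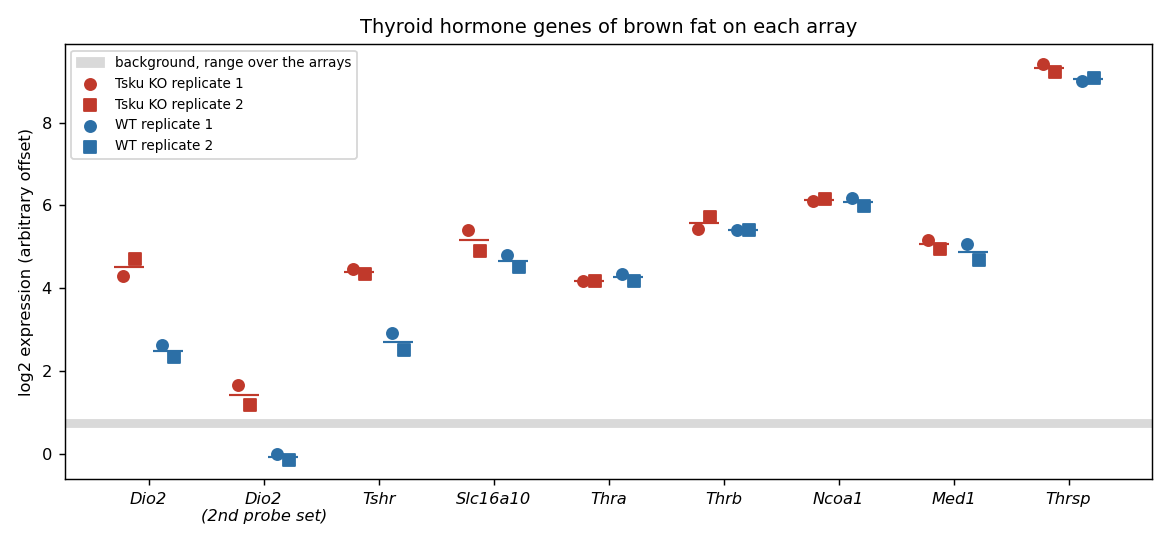
Log2 expression of the 8 genes and of the other Dio2 probe set on each array. KO arrays (red) stand left of WT arrays (blue), circles are replicate 1 and squares replicate 2, short lines are means of 2 arrays, and the grey band is background; Dio2 and Tshr stand apart by genotype, while the points of Thra, Ncoa1 and Med1 overlap.

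Tshr encodes the thyrotropin receptor, best known from the thyroid gland and also present on adipocytes, where it signals through cyclic AMP. It measured 4.45 and 4.35 in KO brown fat, against 2.90 and 2.49 in WT brown fat. As for Dio2, the lowest KO array lay far above the highest WT array. The means were 4.40 ± 0.08 in KO and 2.70 ± 0.29 in WT (SD, n = 2 each). KO was 3.25-fold higher, or 1.70 ± 0.22 (SE) on the log2 scale, with a 95% interval of 1.17 to 2.23, the 5th in size among positive differences of all genes. Its limma adjusted p was 0.736, as for Dio2.

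Tshr was also the gene whose values over the 4 arrays were most like those of Dio2. Likeness was the Euclidean distance between the 4 log2 values after centring each gene on its own mean, so that both the shape and the size of a difference count, and it was 0.50 between Dio2 and Tshr. The next nearest to Dio2 were Mill2 (0.61), Fabp3 (0.67), Tnfsf10 (0.67) and Mmd2 (0.71). The nearest to Tshr were Fabp3 (0.42), Tnfsf10 (0.43), Mmd2 (0.44), Hspb8 (0.46) and Orm3 (0.48), and Dio2 came 7th. With 4 arrays, any gene of similar difference and little spread within a genotype comes close by this measure.

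Dio2 and Tshr lie near each other on chromosome 12. In the gene order of GRCm38.p6, the table used for order only, Cep128 is the 1 measured gene between them, predicted genes left out. Cep128, which encodes a centriole protein, measured 2.67 and 2.30 in KO brown fat, against 1.48 and 1.96 in WT brown fat. Both KO arrays lay above both WT arrays, and the means differed by 0.76 on the log2 scale (95% interval 0.15 to 1.38; adjusted p from limma 0.872). The 5 nearest measured genes on each outer side ran from -0.41 to 0.28 with a median of -0.03, Nrxn3, Oog1 and Pramel51 among them being below background on all arrays. The nearest outside Dio2 was Nrxn3, and the nearest outside Tshr, the transcription factor gene Gtf2a1, measured 5.75 and 5.82 in KO, against 5.95 and 5.92 in WT.

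**Figure D2:**
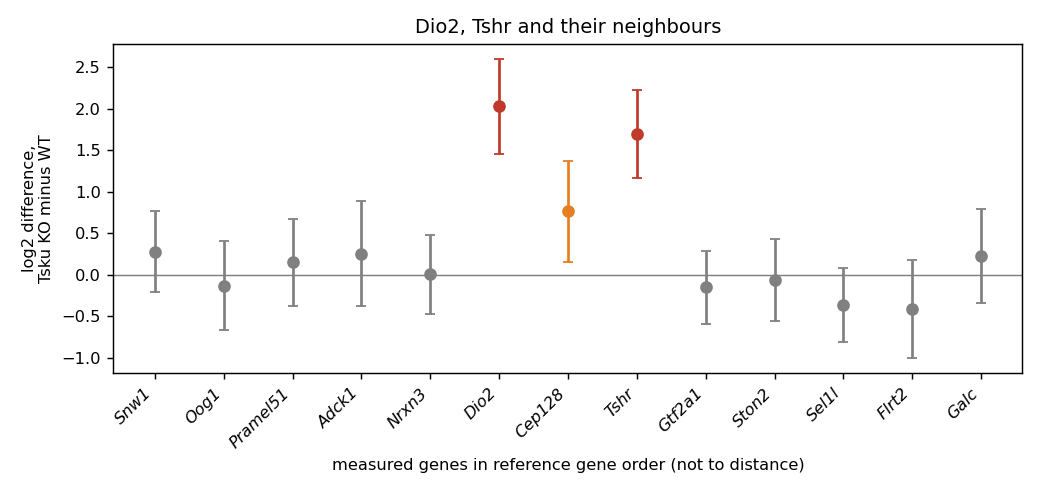
Log2 difference, KO minus WT, of Dio2 and Tshr (red), Cep128 between them (orange) and the 5 nearest measured genes on each outer side (grey), in gene order with equal spacing; bars are 95% intervals from limma. Dio2, Cep128 and Tshr have intervals above 0, and the intervals of the 10 outer genes include 0.

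Thrsp, whose product promotes fat synthesis and which is a classic target of thyroid hormone in liver, lies on chromosome 7 in the same stretch as Tsku. Thrsp was bright on all arrays, at 9.43 and 9.22 in KO brown fat, against 9.001 and 9.09 in WT brown fat. The genotypes did not overlap, as was so for 35.2% of all genes, and 19.4% with KO above WT. The means differed by 0.28 on the log2 scale (95% interval -0.19 to 0.74; adjusted p from limma 0.895). The 12 measured genes between Thrsp and Tsku ran from -0.26 to 0.37, with a median of 0.10, or of 0.04 over the 8 above background on at least 1 array. Of the 5 on each outer side, the 8 above background on at least 1 array ran from -0.40 to 0.40 with a median of -0.16. The upper end of the stretch between, 0.37, was Ints4, a subunit of the Integrator complex, at 5.35 and 5.13 in KO, against 4.92 and 4.83 in WT.

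Slc16a10 encodes an aromatic amino acid transporter that also carries thyroid hormones across the cell membrane. It measured 5.40 and 4.90 in KO brown fat, against 4.80 and 4.51 in WT brown fat. The lower KO array was above the higher WT array by less than the spread within either genotype. The means differed by 0.50 on the log2 scale (95% interval -0.10 to 1.09; adjusted p from limma 0.872). It was 0.24 without KO replicate 1 and 0.75 without KO replicate 2.

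The receptors themselves differed little on the scale of Dio2. Thra, which encodes the receptor that is most abundant in many tissues, measured 4.18 and 4.18 in KO brown fat, against 4.35 and 4.17 in WT brown fat. Its genotypes overlapped, and its means differed by -0.08 on the log2 scale (95% interval -0.53 to 0.38; adjusted p from limma 0.960). Thrb, the receptor gene tied in mice to the induction of Ucp1, measured 5.43 and 5.72 in KO brown fat, against 5.42 and 5.42 in WT brown fat. KO replicate 2 stood above the rest and KO replicate 1 lay 0.01 above the WT mean, which gave 0.16 (-0.33 to 0.64; adjusted p from limma 0.930), or 0.01 without KO replicate 2 and 0.30 without KO replicate 1. The intervals leave room for a log2 difference of 0.38 or 0.64 upwards and of -0.53 or -0.33 downwards, so equal levels are not shown.

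The coregulators Ncoa1 and Med1 also overlapped between genotypes. Ncoa1, a coactivator of nuclear receptors, measured 6.11 and 6.16 in KO brown fat, against 6.17 and 5.98 in WT brown fat, with means 0.06 apart (95% interval -0.40 to 0.52; adjusted p from limma 0.969). Med1, the Mediator subunit that contacts nuclear receptors, measured 5.17 and 4.95 in KO brown fat, against 5.08 and 4.69 in WT brown fat. Its difference was 0.17 (-0.37 to 0.71; adjusted p from limma 0.930), and the spread within WT was larger than that.

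**Figure D3:**
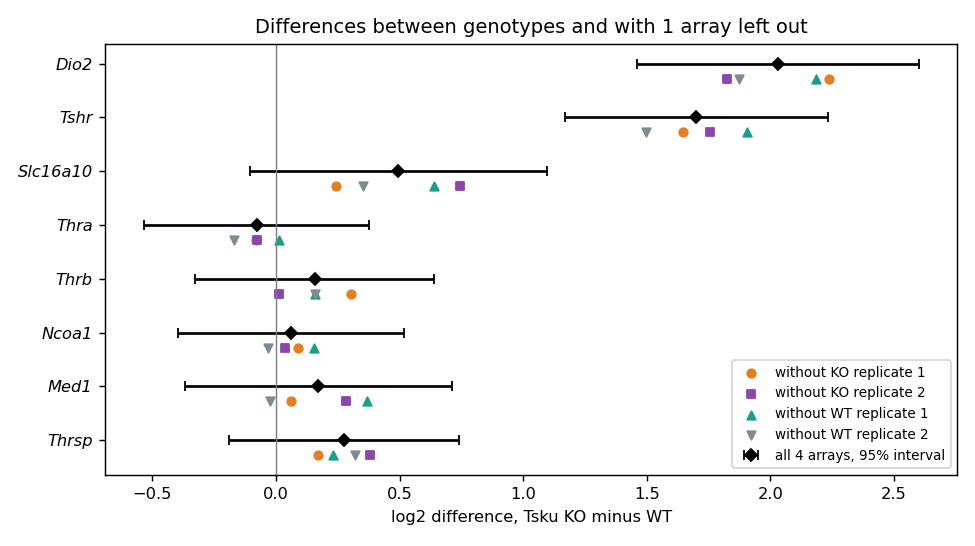
Log2 difference, KO minus WT, of each of the 8 genes with all arrays (black diamonds, bars are 95% intervals from limma) and with 1 array left out (coloured points). Dio2 stays between 1.82 and 2.24 and Tshr between 1.50 and 1.91, while the points of Thra, Ncoa1 and Med1 lie on both sides of 0.

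Of the 8 genes, 7 were higher in KO and 1 lower, with a median log2 difference of 0.22 (0.21 to 0.33 with 1 array left out), against 0.02 over all genes, of which 52.6% were higher. In 5 of the 8 both KO arrays lay above both WT arrays, against 19.4% of all genes, and in 0 both lay below, against 15.8%. Dio2 and Tshr had an unadjusted limma p under 0.05 in the higher direction, as had 2.89% of all genes. Because the list was made with these results known, nothing is read from these counts.

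Around the 8 genes stand others of the same pathway, taken from lists by role. No gene of any of these lists had an adjusted p under 0.05 (limma), so each list is described by its values, counts and median beside the median of 0.02 over all genes. Medians of lists this short moved with single arrays, and where leaving 1 out turned the sign or moved the median by over 1.5 times, the value without that array is given.

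The other deiodinase genes were not measurable here. Dio1, which also activates thyroxine, and Dio3, which inactivates the hormones, were below background on all 4 arrays. The DIO2 protein is turned over by ubiquitination. Wsb1, the adaptor of a ligase that targets it, measured 2.24 and 3.55 in KO, against 3.72 and 3.75 in WT, with KO replicate 1 far below the other arrays. Marchf6, another ligase, measured 5.95 and 5.82 in KO, against 6.28 and 6.14 in WT, a difference of -0.33 (95% interval -0.79 to 0.13). The deubiquitinase genes Usp20 and Usp33 differed by -0.33 and -0.11. Of the 6 genes of the list above background, Dio2 was higher and 5 were lower. The median of all 8 was -0.29, or -0.10 without KO replicate 1 and -0.19 without WT replicate 1.

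DIO2 is a selenoprotein and needs the machinery that inserts selenocysteine. Of 6 such genes 5 were higher and 1 lower, with a median of 0.11. Without KO replicate 2 the median was 0.02 and without WT replicate 1 it was 0.03, with 3 genes higher and 3 lower in each case; it was 0.17 without KO replicate 1. The lower gene was Secisbp2, whose product binds the selenocysteine insertion element of messenger RNAs, at 2.76 and 3.31 in KO, against 3.34 and 3.76 in WT (difference -0.51, 95% interval -1.17 to 0.15). Sephs2, which makes the selenium donor, differed by 0.26, and Pstk, the kinase gene of selenocysteine synthesis, by 0.20.

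Among transporters and binding proteins, the member that differed most was Slc7a8, an amino acid transporter gene whose product also carries thyroid hormones. It measured 4.23 and 5.61 in KO brown fat, against 6.70 and 6.98 in WT brown fat. Both KO arrays were below both WT arrays, and the KO arrays lay further apart from each other than the WT arrays did. The difference was -1.92 ± 0.44 (SE) on the log2 scale, with a 95% interval of -3.01 to -0.83, opposite in sign to that of Slc16a10, with a limma adjusted p of 0.872. Of the 10 measured genes 5 were below background on all arrays, among them Slco1a5, an organic anion transporter gene, Slco1c1, a thyroxine transporter gene of brain vessels, and Crym, a hormone-binding protein of the cytosol. The list had 4 genes higher and 6 lower, with a median of -0.22 that was -0.03 without WT replicate 1, -0.15 without KO replicate 2 and -0.33 without KO replicate 1. Of the 6 lower genes 4 were below background on all arrays, and the 5 genes above it on at least 1 array had 3 higher, 2 lower and a median of 0.03.

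Ligands of the thyrotropin receptor were at or near background. Tshb and Cga, the subunits of thyrotropin, and Gphb5, a subunit of the related hormone thyrostimulin, were below it on all arrays. Gpha2, the other thyrostimulin subunit, was dim: it read -0.01 and 0.38 in KO, both below background, against 0.90 and 1.23 in WT. WT was at least 1.24-fold higher. The signalling genes behind the receptor differed little in size: Gnas, for the stimulatory G protein, by 0.07, Prkaca, for a catalytic subunit of protein kinase A, by 0.15, and Creb1 by -0.24. Over the 15 measured genes, Tshr included, 8 were higher and 7 lower, with a median of 0.01 that turned to -0.01 under repeated quantile normalization and under cyclic loess. It was -0.16 without KO replicate 2 and -0.06 without WT replicate 2, with 5 higher and 10 lower in each case, and 0.04 and 0.03 without the replicate 1 array of KO and of WT. Of 5 genes for other receptors known to act on Dio2, among them the beta-adrenergic receptors, 1 was measured: Gpbar1, the bile acid receptor, was below background on all arrays.

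The retinoid X receptors, partners of the thyroid hormone receptors on DNA, were all higher in KO by their means. Rxrg measured 1.68 and 2.15 in KO brown fat, against 0.86 and 1.17 in WT brown fat, with no overlap. The WT values were near background, which was 0.63 on WT replicate 1 and 0.77 on WT replicate 2. Rxrg differed by 0.90 ± 0.24 (SE) on the log2 scale (95% interval 0.31 to 1.49; adjusted p from limma 0.872). Rxrb differed by 0.53 and Rxra by 0.27, both with overlapping genotypes. With Thra and Thrb the list had 4 of 5 higher and a median of 0.27, or of 0.16 without KO replicate 2 and 0.16 without WT replicate 1.

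In the corepressor complex, where 5 of 7 genes were measured, 3 were higher and 2 lower, with a median of 0.03 that ran from -0.04 without KO replicate 1 to 0.09 without KO replicate 2. Tbl1x, a subunit that helps exchange corepressor for coactivator, measured 5.17 and 5.29 in KO, against 4.86 and 4.78 in WT (difference 0.41, 95% interval -0.04 to 0.86). Gps2 differed by -0.28 and Tbl1xr1 by 0.13. Of 12 coactivator genes 3 were higher and 9 lower, with a median of -0.11. Without WT replicate 1 it was -0.02 with 6 higher and 6 lower, without WT replicate 2 it was -0.19 with 1 higher and 11 lower, and without KO replicate 2 it was -0.06. Ppargc1a, a coactivator of mitochondrial genes, measured 6.46 and 5.82 in KO, against 5.85 and 5.74 in WT, so that only KO replicate 1 stood out. Its relative Ppargc1b differed by -0.30, Kat2a by -0.31 and Ncoa3 by -0.35.

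All 33 Mediator genes were measured, with 13 higher, 20 lower and a median of -0.12, which turned to 0.02 without KO replicate 1, with 17 higher and 16 lower, and was -0.06 without WT replicate 1. It was -0.02 with the most variable probe set of each gene and -0.06 with the mean of its probe sets. An unadjusted p under 0.05 was found for 2 in the higher and 4 in the lower direction, against 2.89% and 2.67% of all genes. Cdk19, a kinase of the Mediator kinase module, measured 3.56 and 3.22 in KO brown fat, against 4.20 and 4.37 in WT brown fat. Its difference was -0.90 (95% interval -1.41 to -0.38). Med12l, for a variant subunit of the same module, went the other way at 4.70 and 4.41 in KO, against 3.81 and 3.64 in WT, and Med8 differed by 0.60.

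**Figure D4:**
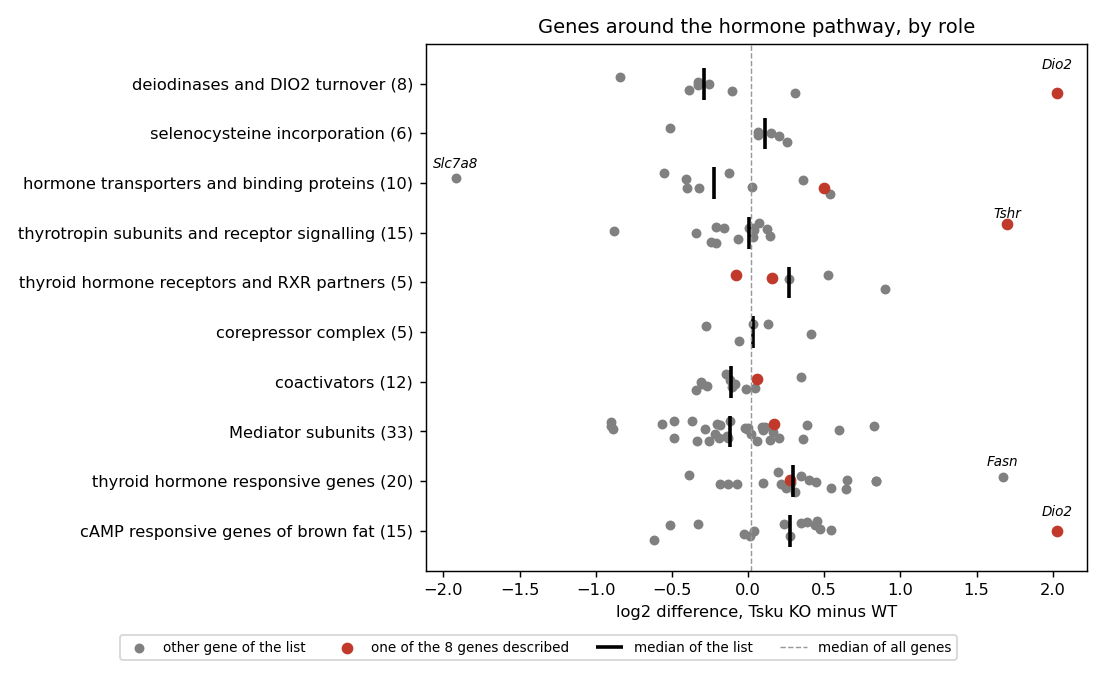
Log2 difference, KO minus WT, of each measured gene of the 10 lists by role with more than 1 gene measured, with the number measured in brackets; red points are genes of the 8 described, black bars are list medians and the dashed line is the median of all genes. Dio2 and Tshr lie at 2.03 and 1.70, Fasn at 1.67 and Slc7a8 at -1.92, and the medians of the lists drawn lie between -0.29 and 0.29.

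Of 20 genes known to respond to thyroid hormone in some tissue, not in each case brown fat, 16 were higher in KO and 4 lower, with a median of 0.29. Both KO arrays lay above both WT arrays in 14 and below in 2, against 19.4% and 15.8% of all genes. Dio3 among the 14 and Dio1 among the 2 were below background on all arrays. An unadjusted limma p under 0.05 was found for 6, all in the higher direction, against 2.89% of all genes. The number higher was 16 with all arrays and between 16 and 18 with 1 array left out. Part of the list, the fat synthesis genes among it, was already known to be higher in these arrays when it was drawn up, so the count is no independent evidence.

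Fasn, for fatty acid synthase, measured 8.96 and 8.28 in KO brown fat, against 6.74 and 7.16 in WT brown fat, a log2 difference of 1.67. Hr, a corepressor gene that is a direct target of the hormone in rodent brain, measured 2.03 and 1.47 in KO brown fat, against 0.84 and 0.98 in WT brown fat. It differed by 0.84 ± 0.25 (SE; 95% interval 0.24 to 1.44), with KO replicate 1 the highest array, as it was for Fasn. The WT values of Hr were near background, at 0.63 on WT replicate 1 and 0.77 on WT replicate 2. Srebf1, the transcription factor gene of fat synthesis, measured 5.36 and 5.20 in KO, against 4.50 and 4.77 in WT, a difference of 0.65. For all 3 the limma adjusted p was 0.872.

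Ucp1, the uncoupling protein gene that the hormone and noradrenaline raise together, differed by 0.55 (95% interval 0.10 to 0.997). Klf9, a direct target of the hormone in several tissues, measured 6.92 and 7.15 in KO brown fat, against 7.12 and 7.10 in WT brown fat. The genotypes overlapped, with a difference of -0.07 (-0.54 to 0.39). Me1, for malic enzyme, had 7.21 and 6.45 in KO, against 6.04 and 5.94 in WT, while Mid1ip1, the relative of Thrsp, overlapped between genotypes with a difference of 0.19.

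**Figure D5:**
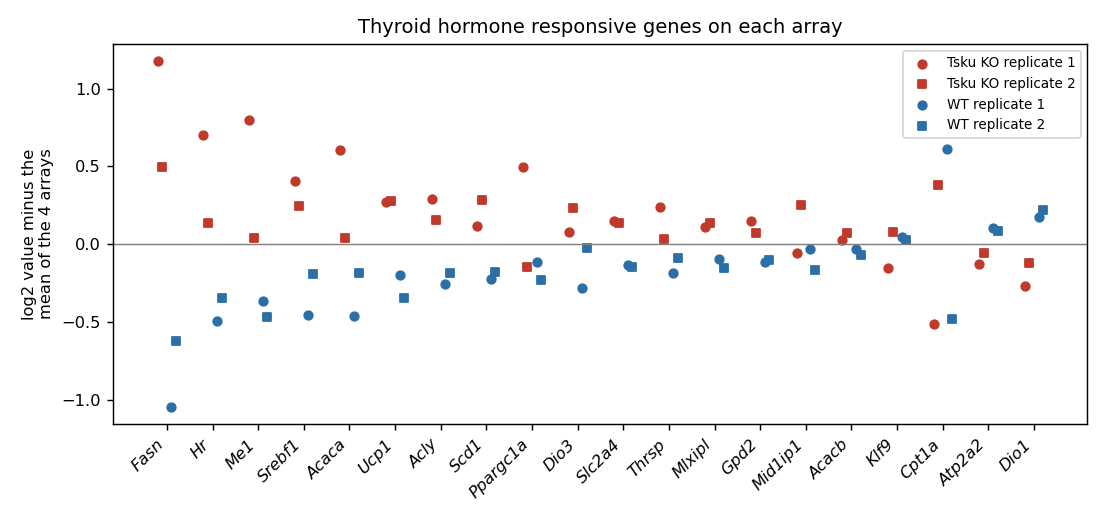
Log2 value minus the gene's mean over the 4 arrays for 20 thyroid hormone responsive genes, ordered by difference, with KO arrays (red) left of WT arrays (blue). In 14 of the genes both KO arrays lie above both WT arrays, with the widest separation of means for Fasn (1.67), and in Atp2a2 and Dio1 both lie below; Dio1 and Dio3 are below background on all arrays.

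The genes that cyclic AMP raises in brown fat, Dio2 among them, had 11 of 15 higher, with a median of 0.28. Without KO replicate 2 the median was 0.13, with 8 higher and 7 lower. Both KO arrays lay above both WT arrays in 5 of the 15, Dio2 among them, and below in 2, against 19.4% and 15.8% of all genes. The others of the 5 were Ucp1 (0.55), Pde4d (0.47), Gadd45g (0.45) and Fgf21 (0.38), which was below background on both WT arrays. Apart from Dio2 the differences were thus smaller than that of Dio2 and mixed in direction. Per1, a clock gene with a cyclic AMP response, measured 4.89 and 5.02 in KO brown fat, against 5.48 and 5.65 in WT brown fat, a difference of -0.61 (95% interval -1.08 to -0.15). Nr4a1, an immediate target of the messenger, overlapped between genotypes at 7.47 and 8.05 in KO, against 7.25 and 7.80 in WT. Promoter windows were listed for 12 of the 15 genes, and the full cAMP response element was in that of Dio2 alone. The shorter core TGACG, which 17.8% of all windows hold, was not particular to Dio2. It was also found before Ppargc1a, Ucp1, Nr4a1, Nr4a2, Nr4a3, Fgf21, Cebpb and Per1, and in 1 of 4 windows of Pde4b. The windows of Pde4d and Gadd45g lacked it. Whether these matches bear on the differences was not tested.

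Markers of the tissue and of other cell types were read on the same arrays. The 13 brown adipocyte markers were all above background on at least 1 array, 11 of them on all 4. Of the 13 markers 12 were higher in KO, with a median of 0.27. The median was 0.16 without KO replicate 1 and 0.18 without WT replicate 2, with 10 higher in the second case. Prdm16 differed by 0.999 and Cidea by 0.07, while the 1 lower marker, Lhx8, differed by -0.61 with overlapping genotypes. Markers of thyroid follicle cells, which express Tshr, were mostly at background: 6 of 8 measured, Tg and Slc5a5 among them, were below background on all arrays. Their log2 values summed to between 1.99 and 3.29 in KO and between 2.87 and 3.07 in WT.

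Markers of other cell types also differed between the genotypes in their means. All 14 skeletal muscle markers were lower in KO (median -1.83, summed log2 values 25.9 to 42.9 in KO and 55.1 to 65.5 in WT), with 11 above background on all arrays. Without KO replicate 2 their median was -1.21, with 12 of 14 lower, and without KO replicate 1 it was -2.44, with all 14 lower. All 10 hepatocyte markers were higher (median 0.44, sums 12.7 to 19.5 in KO and 8.09 to 12.1 in WT). Many were dim, with 4 above background on all arrays and 1 below it on all. Their median was 0.07 without KO replicate 1, with 6 higher and 4 lower, and 0.82 without KO replicate 2. All 10 macrophage markers were lower (median -0.53, sums 32.9 to 40.5 in KO and 41.3 to 43.3 in WT). Their median was -0.13 without KO replicate 1, with 8 of 10 lower, and -0.83 without KO replicate 2. Dio2 differed by 2.24 without KO replicate 1 and by 1.82 without KO replicate 2, and Tshr by 1.65 and 1.76. The sympathetic neuron markers were below background on all arrays for 6 of 6 measured. Endothelial markers had a median of 0.03 that ran from -0.22 without KO replicate 2 to 0.28 without KO replicate 1 and was -0.01 under repeated quantile normalization. White adipocyte markers had a median of 0.03, or of 0.25 with the most variable probe set of each gene. The median was -0.03 without KO replicate 1, 0.09 without KO replicate 2 and 0.06 without WT replicate 2. Of these 5 markers 3 were higher and 2 lower, and 2, Hoxc9 and Tcf21, were below background on all arrays. Nnat, for neuronatin, measured 5.74 and 5.86 in KO, against 6.85 and 6.78 in WT, a log2 difference of -1.01. Retn differed by 0.57 and Lep by 0.03, both with overlapping genotypes. The part of muscle, liver, macrophage or nerve RNA in the differences above was not tested.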

How the data were processed

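Total RNA of brown adipose tissue was labelled with biotin and hybridised to 1 array per sample, 2 KO and 2 WT, per the labels. The authors deposited normalized log2 values for 41345 probe sets. Per the submitters' processing notes, RMA, oligo and limma were used, without roles or versions, and base 2 is taken from RMA. RMA pulls dim probe sets together, which understates their changes. The genome build is not given in the sources used here.

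Platform annotation gave 23521 probe sets 1 symbol, 1814 several and 16010 none listed. The brightest probe set was kept for each of 22180 genes. KO was compared with WT by lmFit and eBayes of limma 3.58.1 under R 4.3.3, without a block, two-sided, with Benjamini-Hochberg adjustment over all genes at a threshold of 0.05, on 2 residual and 3.96 prior degrees of freedom. On simulated data of the same 22180 genes, the fit recovered 0 of 50 genes planted at a log2 change of 1, 35 of 50 at 2 and 45 of 50 at 3; many planted genes ease the adjustment, so the recovery cannot be taken over to these arrays. The members, the lists (11 by role, 8 of markers) and the background rule were chosen with earlier results of these data known. Named are all members, the 3 smallest unadjusted p of each list by role with Ucp1 and Ppargc1a, and the 5 genes most like Dio2 and Tshr; neighbours are given by range, and other genes named, markers included, were chosen after their values were seen. Counts without genes below background on all arrays were added after seeing the data. Predicted genes, microRNA and receptor gene families of smell were skipped for likeness and neighbours. Promoters are from RefSeq, GRCm38.p6.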

Additional observations from a re-analysis of the deposited data

How the results depend on the processing

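Dio2 and Tshr kept their direction and stayed above an adjusted p of 0.05 (limma) under all 14 alternatives run. Dio2 ran from 1.76, a mean over both probe sets that includes the dimmer one below background in WT, to 2.24 with an adjusted p of 0.0593 to 0.927, and Tshr from 1.50 to 1.91 with 0.0756 to 0.927. The number of genes past the threshold, 0 in the comparison reported, was 1 with the replicate block, 1 with arrays centred on their medians and 1 with a prior variance that follows mean level, and ran from 0 to 15 with 1 array left out, 15 being without WT replicate 1 and 2 without WT replicate 2. The sign turned for Thra without WT replicate 1 (0.0134) and for Ncoa1 (-0.0315) and Med1 (-0.0227) without WT replicate 2; with 1 array left out, Thra ran from -0.17 to 0.01, Ncoa1 from -0.03 to 0.15 and Med1 from -0.02 to 0.37, and these values rest on 3 arrays. Thrb, Slc16a10 and Thrsp kept their sign under all 14. Replicates share numbers across genotypes in the labels, but deviations of same-numbered arrays from their group means had a correlation of -0.07 across genes, so the replicate block is given here only: with it the differences of Dio2 and Tshr are the same by construction, with a limma adjusted p of 0.464 each. Genes below background on both arrays of a genotype have only a bound.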
